A study of Mus musculus with 6 samples.

Results

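A set of 10 core genes of the Hedgehog pathway were measured in mouse embryonic stem cell derivatives sorted on a CTIP2 reporter. The genes were the ligand Shh, the receptor Ptch1, the ligand-binding antagonist Hhip, the co-receptors Gas1, Cdon and Boc, the signal transducer Smo, and the transcription factors Gli1, Gli2 and Gli3. They were chosen by gene symbol as the platform annotation gives it, and they make up 10 of the 19938 genes with a probe set of a single symbol. Each of the 10 genes had exactly 1 such probe set. The transcript of Gli3 was 4.32-fold lower in CTIP2:GFP+ than in CTIP2:GFP- cells and was the 1 gene of the 10 that passed the test. The other 9 genes had negative mean differences as well, from -1.51 for Boc to -0.21 for Cdon on the log2 scale, while 59% of all genes had a negative mean difference. None passed the test among these 9, and 0 of the 10 genes were called higher in GFP+ cells.

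The cells came from a CTIP2:GFP knock-in (KI) line, made by homologous recombination in 129SVEV embryonic stem cells, in which an IRES-GFP reporter and a retained Neo cassette follow the coding sequence of Ctip2 (Bcl11b). They were differentiated as floating aggregates, with a TGF-β receptor inhibitor (SB-431542) and a WNT inhibitor (WNT-C59) in the early medium. The methods name no added agonist or antagonist of Hedgehog signalling. On day 11, day 12 and day 13 the cells were divided by FACS into GFP+ and GFP- fractions, and the RNA of each fraction and day was hybridised to 1 GeneChip Mouse Gene 1.0 ST array, which gives 6 arrays and 3 per fraction. Both fractions therefore shared the knock-in line, the inhibitors and the culture, and differed in the reporter signal on which they were sorted. The labels do not say that the days were separate cultures, so the spread measured here is one between days. An SD is the spread of a fraction's signals over the days. A p-value with the day in the model rests on how much the difference varied between days, with a variance moderated over all genes. Precision is limited by how few arrays there are. A signal is the RMA value of a probe set on the log2 scale, and a difference is GFP+ minus GFP- on that scale, averaged over the 3 days. An array reads the mean RNA of a sorted fraction, so fewer cells of a type and less RNA per cell cannot be told apart.

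Hedgehog ligands are secreted proteins that pattern the neural tube and the ventral telencephalon and that act on dividing neural progenitors. Without ligand, PTCH1 holds SMO inactive, and GLI2 and above all GLI3 are processed into repressors of target genes. Ligand bound by PTCH1 together with GAS1, CDON or BOC releases SMO, which signals at the primary cilium and turns GLI proteins into activators. GLI1, PTCH1 and HHIP are themselves target genes of the pathway, and PTCH1 and HHIP limit it by taking up ligand.

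RefSeq promoter windows of the GRCm38.p6 assembly were given for 7 of the 10 genes, namely Ptch1, Hhip, Gas1, Cdon, Smo, Gli2 and Gli3. The 250 bases upstream of the annotated start are shown for 3 of them: Gli3, the gene that passed the test, Ptch1, the receptor that is also a target gene, and Gli2, whose window held a motif. They are written 5′ to 3′ on the strand of the gene, and capitals mark the core of the GLI binding motif, ACCACCC, which reads GGGTGGT on the opposite strand. The Gli3 sequence lies on the plus strand at chr13:15463473-15463722, the Ptch1 sequence on the minus strand at chr13:63565736-63565985 and the Gli2 sequence on the minus strand at chr1:119053620-119053869.
Gli3: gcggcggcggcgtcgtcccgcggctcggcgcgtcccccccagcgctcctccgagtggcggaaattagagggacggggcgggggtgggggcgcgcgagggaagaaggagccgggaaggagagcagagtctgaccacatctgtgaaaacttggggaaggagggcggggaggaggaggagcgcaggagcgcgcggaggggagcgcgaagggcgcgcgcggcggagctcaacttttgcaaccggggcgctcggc
Ptch1: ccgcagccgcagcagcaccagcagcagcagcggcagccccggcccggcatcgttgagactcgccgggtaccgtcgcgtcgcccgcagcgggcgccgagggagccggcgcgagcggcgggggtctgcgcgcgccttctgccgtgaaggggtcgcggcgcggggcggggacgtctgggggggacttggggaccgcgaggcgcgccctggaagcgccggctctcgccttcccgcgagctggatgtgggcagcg
Gli2: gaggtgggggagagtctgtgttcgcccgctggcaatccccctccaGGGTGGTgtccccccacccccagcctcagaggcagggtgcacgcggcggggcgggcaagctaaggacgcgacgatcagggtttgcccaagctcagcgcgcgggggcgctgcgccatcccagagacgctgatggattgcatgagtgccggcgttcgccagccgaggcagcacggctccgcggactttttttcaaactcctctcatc

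The GLI consensus GACCACCCA, which contains the core, was searched on both strands of the 300-base windows and was found in 0 of the 7 windows, against 0.253% of all 32851 RefSeq windows. The core ACCACCC was found in 1 of the 7 windows, that of Gli2, where it starts 205 bases upstream of the start, against 4.61% of all windows. These matches describe letters in a short window and no binding was measured. The windows of the 7 genes ranged in GC content from 44.7% for Cdon to 76.3% for Ptch1, and the median of all windows was 52.7%.

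The sort and the arrays were checked on Bcl11b, which encodes CTIP2. From day 11 to day 13 it read 8.76, 7.91 and 8.54 in GFP+ cells, above all GFP- arrays, which read 6.44, 6.27 and 6.88. The GFP- array of day 13 stood apart from the other 5 arrays, with an SD over probe sets of 1.11 against 1.29 to 1.49 and correlations with the others of 0.863 to 0.927. On that day 1831 genes were over 2-fold higher and 457 over 2-fold lower in GFP+ cells. All results that rest on this array are given with and without day 13 where the call or the direction depends on it.

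Across the 10 genes, the signals of GFP+ cells lay mostly below those of GFP- cells of the same day. With limma and a threshold of 0.05 on the adjusted p, 1 of the 10 genes was called lower, while 0.567% of all genes were called lower and 0.797% were called higher. At an unadjusted p under 0.05, 8 of the 10 genes were lower, all but Shh and Cdon, against 5.96% of all genes, and 0 were higher. On average over 2-fold lower were 4 of the 10 genes, Boc, Gas1, Gli3 and Ptch1, against 1.02% of all genes. In 6 of the 10 genes, Gas1, Gli1, Gli2, Gli3, Hhip and Smo, every GFP+ array lay below every GFP- array, which was the case for 7.85% of all genes. The same 8 genes that were lower at an unadjusted p were lower on each of the 3 days, against 21.4% of all genes. The median difference was -0.94 over the 10 genes and -0.05 over all genes. When the day was left out of the model 2 of the 10 genes, Smo and Gli3, were called lower. Without day 13 0 of the 10 were called lower, although 6 were then over 2-fold lower, and without day 11 or without day 12 there were 5 called lower.

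**Figure D1:**
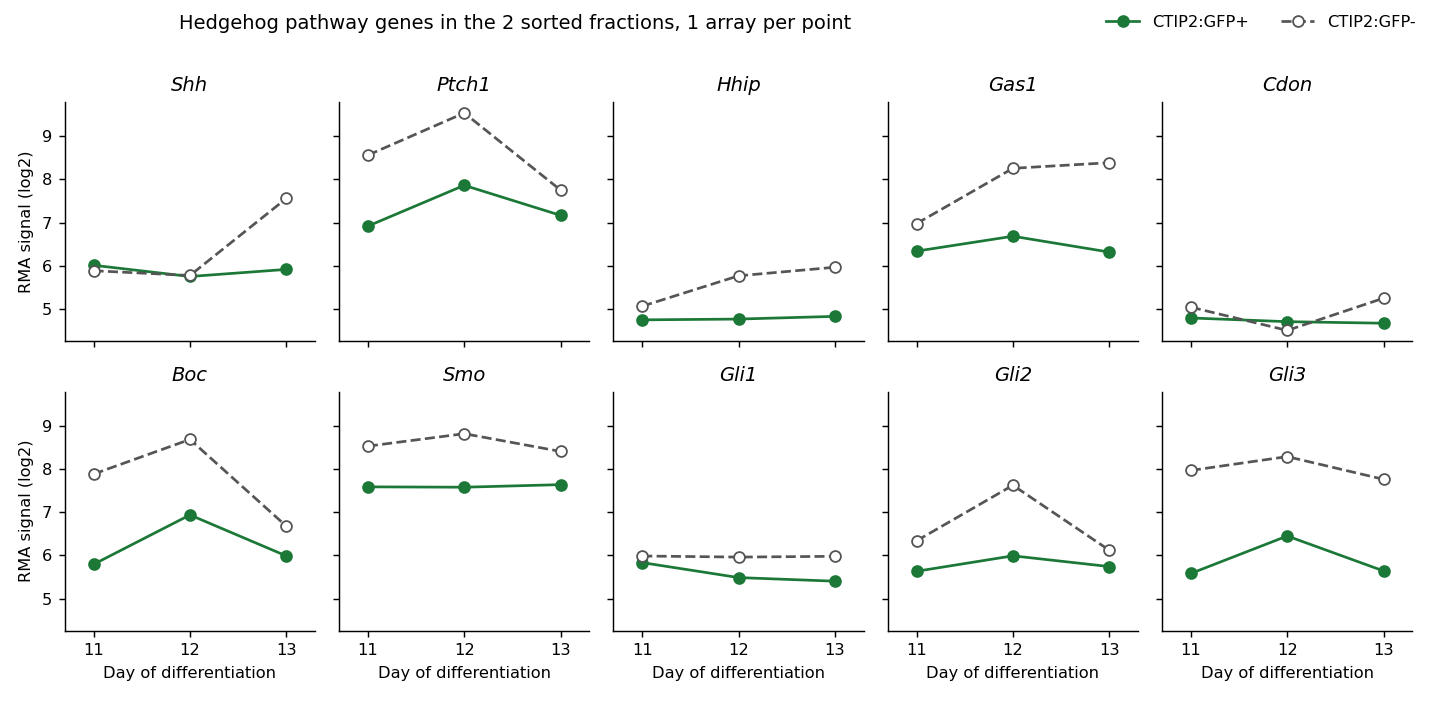
RMA signal (y axis, log2) of the 10 Hedgehog pathway genes against day of differentiation (x axis), with filled points for CTIP2:GFP+ and open points for CTIP2:GFP- cells and 1 array per point. The lines of Gli3 stay apart on every day, those of Shh cross and separate on day 13 (5.92 and 7.56), and Ptch1, Boc, Gli2 and Gli3 peak on day 12 in both fractions.

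Shh, the ligand of the pathway in the ventral neural tube, did not differ between the fractions past the test. Its signal (probe set 10528872) was 6.02, 5.76 and 5.92 in GFP+ cells from day 11 to day 13, and 5.89, 5.78 and 7.56 in GFP- cells. The 5 arrays other than the day 13 GFP- array lay within 5.76 to 6.02, and that 1 array was the highest, so the fractions overlapped. GFP+ cells averaged 5.90 ± 0.13 (SD, n = 3) and GFP- cells 6.41 ± 0.997 (SD, n = 3), and the difference of -0.51 had a 95% interval of -1.39 to 0.37 (adjusted p = 0.575, limma). By day the difference was 0.13, -0.02 and -1.64. The day 13 value was among the lowest 0.223% of differences of that day, while without day 13 the mean difference became 0.05. The part of the day 13 GFP- array, which differs from the others over the whole range of signals, in this value was not tested.

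Ptch1, which encodes the receptor that binds the ligand and holds SMO inactive, lay 2.46-fold lower in GFP+ cells without passing the test. Its signal (probe set 10410039) was 6.92, 7.86 and 7.17 in GFP+ and 8.56, 9.53 and 7.75 in GFP- cells on day 11, day 12 and day 13. The GFP+ array was lower on each day, but the fractions overlapped, since the GFP+ array of day 12 lay above the GFP- array of day 13. The mean was 7.32 ± 0.49 (SD, n = 3) against 8.62 ± 0.89 (SD, n = 3), with a difference of -1.30 (95% interval -1.91 to -0.69, adjusted p = 0.0771, limma). The differences on day 11 and day 12 were close to each other, at -1.64 and -1.67, and that of day 13 was -0.58. With no block for the day the adjusted p was 0.305.

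Hhip encodes a membrane protein that binds Hedgehog ligands and keeps them from the receptor. Its signal (probe set 10579894) was 4.75, 4.77 and 4.83 in GFP+ and 5.07, 5.77 and 5.97 in GFP- cells. The fractions did not overlap, and the GFP+ signals lay near 4.74, the 20th percentile of all signals, so a lower level may not have been measurable there. The means of 4.79 ± 0.04 (SD, n = 3) and 5.60 ± 0.47 (SD, n = 3) gave a difference of -0.82 (95% interval -1.31 to -0.33), which did not pass the test (adjusted p = 0.126, limma). Its difference came to -0.32 for day 11, -1.0 for day 12 and -1.14 for day 13.

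The 3 co-receptors, which bind the ligand together with PTCH1, did not share 1 pattern. Boc and Gas1 had the largest differences after Gli3, with 2.84-fold and 2.68-fold lower signals in GFP+ cells, and Cdon had the smallest of the 10. For Boc, a member of the immunoglobulin superfamily (probe set 10439612), the signal was 5.80, 6.94 and 5.99 in GFP+ and 7.88, 8.68 and 6.68 in GFP- cells on day 11, day 12 and day 13. Its GFP+ array was lower on each day, but the GFP+ array of day 12 lay above the GFP- array of day 13, so the fractions overlapped. The means were 6.24 ± 0.61 (SD, n = 3) and 7.75 ± 1.01 (SD, n = 3), and the difference was -1.51 (95% interval -2.20 to -0.81, adjusted p = 0.0725, limma). By day the difference of Boc was -2.09, -1.74 and -0.69.

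Gas1, a GPI-anchored co-receptor (probe set 10409833), read 6.34, 6.69 and 6.32 in GFP+ and 6.98, 8.26 and 8.39 in GFP- cells. Every GFP+ array lay below every GFP- array, and the GFP- signal of day 11 was the lowest of its fraction. The means were 6.45 ± 0.21 (SD, n = 3) and 7.87 ± 0.78 (SD, n = 3), with a difference of -1.42 (95% interval -2.11 to -0.73) that did not pass the test (adjusted p = 0.0829, limma). Its difference was -0.64, -1.57 and -2.06 on day 11, day 12 and day 13, an order opposite to that of Boc, although a change with day passed the test for neither gene. Cdon, the co-receptor closest to Boc in structure (probe set 10584229), read 4.80, 4.71 and 4.68 in GFP+ and 5.05, 4.51 and 5.25 in GFP- cells. These signals were low on all arrays and overlapped between the fractions, and the GFP+ array was the higher one on day 12. The difference of Cdon was -0.21 with a 95% interval of -0.67 to 0.25 (adjusted p = 0.660, limma).

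Smo, which encodes the transducer that PTCH1 holds in check, had the steadiest signals of the 10 genes in GFP+ cells. Its signal (probe set 10536917) was 7.58, 7.58 and 7.64 in GFP+ and 8.53, 8.81 and 8.40 in GFP- cells on day 11, day 12 and day 13. The fractions did not overlap, and the gap was wider than the spread of either fraction. The means were 7.60 ± 0.03 (SD, n = 3) and 8.58 ± 0.21 (SD, n = 3), and the difference of -0.98 (1.97-fold lower, 95% interval -1.36 to -0.60) lay just outside the threshold (adjusted p = 0.0546, limma). With no block for the day Smo passed the test (adjusted p = 0.0479).

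**Figure D2:**
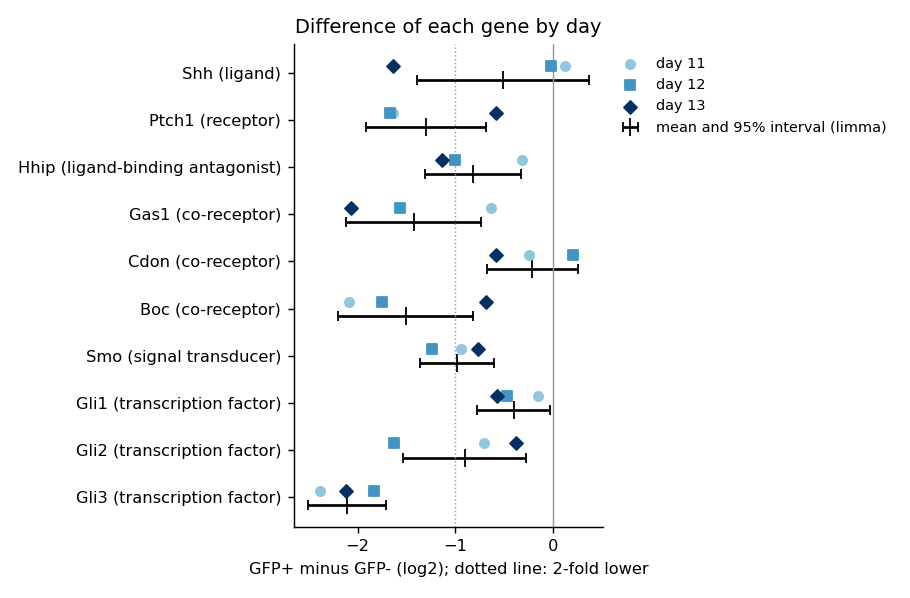
Difference of GFP+ minus GFP- (x axis, log2) for each gene (y axis, with its role). Points are the differences of day 11, day 12 and day 13, bars are the mean with the 95% interval from limma, and the dotted line marks a 2-fold lower signal. The interval of Gli3 (-2.51 to -1.71) lies wholly beyond that line, and the intervals of Shh and Cdon include 0.

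Among the 3 GLI transcription factors the difference was largest for Gli3, which acts mainly as a repressor when ligand is absent. The signal of Gli3 (probe set 10403727) was 5.58, 6.45 and 5.64 in GFP+ and 7.96, 8.28 and 7.76 in GFP- cells on day 11, day 12 and day 13. Every GFP+ array lay at least 1 log2 unit below every GFP- array. The means of 5.89 ± 0.48 (SD, n = 3) and 8.0 ± 0.26 (SD, n = 3) gave a difference of -2.11 (standard error 0.16, 95% interval -2.51 to -1.71, adjusted p = 0.0240, limma). By day it was -2.38, -1.83 and -2.12, which placed Gli3 among the lowest 0.0226%, 0.233% and 0.0476% of all genes on the 3 days. The call held with no block for the day (adjusted p = 0.0313). Without day 13 the difference was again -2.11, but the adjusted p was 0.0525, and after median centring of each array it was -2.06 with an adjusted p of 0.0981.

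Gli2, the main activator of the pathway (probe set 10357137), read 5.63, 5.99 and 5.74 in GFP+ and 6.34, 7.62 and 6.12 in GFP- cells. The fractions did not overlap, but the lowest GFP- signal lay only a little above the highest GFP+ signal. The means were 5.79 ± 0.18 (SD, n = 3) and 6.69 ± 0.81 (SD, n = 3), and the difference of -0.90 (95% interval -1.54 to -0.27) did not pass the test (adjusted p = 0.171, limma). Gli1, which is transcribed in response to the pathway and serves as its usual readout (probe set 10373179), read 5.83, 5.49 and 5.40 in GFP+ and 5.99, 5.96 and 5.98 in GFP- cells. The fractions did not overlap, and the 3 GFP- signals were almost level. The difference of Gli1 was -0.40 (1.32-fold lower, 95% interval -0.78 to -0.02, adjusted p = 0.290, limma), the second smallest of the 10 in size after Cdon.

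The differences of the 10 genes did not move together along the days. Those of Shh, Hhip, Gas1, Cdon and Gli1 were largest in size on day 13, those of Boc and Gli3 on day 11, and those of Ptch1, Smo and Gli2 on day 12. The slope of the difference per day was -0.88 for Shh (unadjusted p = 0.0585, adjusted p = 0.999, limma) and -0.71 for Gas1 (unadjusted p = 0.0592, adjusted p = 0.999, limma). A change of the difference with day passed the test for 0 of the 10 genes and 0% of all genes. At an unadjusted p under 0.05 it was 0 of the 10 genes and 108 of 19938. The levels themselves were highest on day 12 in both fractions for 4 of the 10 genes, Boc, Gli2, Gli3 and Ptch1, against 23.7% of all genes. On the GFP- array of day 13, Ptch1, Boc, Smo, Gli2 and Gli3 had the lowest and Shh, Hhip, Gas1 and Cdon the highest signal of their fraction.

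**Figure D3:**
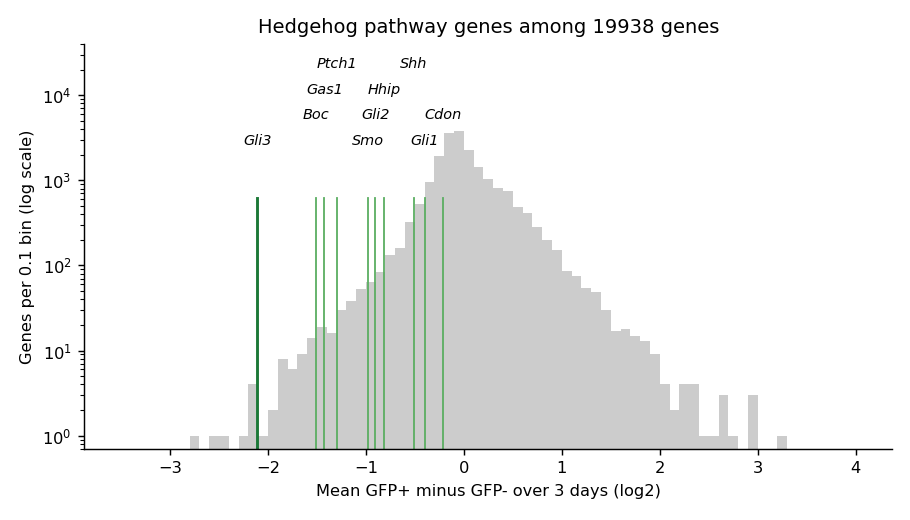
Number of genes (y axis, log scale) by mean difference of GFP+ minus GFP- (x axis, log2, bins of 0.1) for all 19938 genes in grey, with green lines at the 10 Hedgehog pathway genes. All 10 lines lie below 0, from -2.11 for Gli3 to -0.21 for Cdon, and the median of all genes was -0.05.

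Against all genes, the differences of Gli3, Boc, Gas1 and Ptch1 were among the lowest 0.0376%, 0.233%, 0.308% and 0.424%. That of Shh was among the lowest 4.59%. These ranks place differences and not levels, since signals of different probe sets cannot be compared.

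Other genes of the pathway were taken from 5 lists with 73 genes, of which 68 were measured. Of these, 1 was called higher in GFP+ cells, 2 were called lower and 65 did not pass the test, with a median difference of -0.12. Of all genes, 0.797% were called higher and 0.567% lower, and these shares apply to the counts by role and by cell type as well. The one called higher was Disp2, a relative of the transporter that releases lipid-modified ligand, at 8.28, 8.47 and 8.18 in GFP+ and 6.98, 7.28 and 6.13 in GFP- cells. Its difference was 1.51 (standard error 0.21, adjusted p = 0.0421, limma). The genes called lower were Ccnd1, the cyclin of the G1 phase (difference -1.81, standard error 0.17, adjusted p = 0.0247, limma), and Sfrp1, a secreted WNT modulator (difference -1.13, standard error 0.15, adjusted p = 0.0376, limma). Ccnd1 read 6.49, 7.42 and 6.69 in GFP+ and 8.51, 9.42 and 8.13 in GFP- cells, so that it too was highest on day 12 in both. All 3 calls were lost with no block for the day, where the adjusted p was 0.0899 for Disp2, 0.102 for Ccnd1 and 0.0652 for Sfrp1, and without day 13, where 0 of all genes passed.

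By role, 1 of 8 genes of ligand production and release was called higher and 0 lower, with a median of -0.11. The other 2 ligands, Ihh and Dhh, did not pass the test, with differences of -0.30 (adjusted p = 0.506, limma) and -0.58 (adjusted p = 0.129, limma). Of 5 further genes of ligand reception, 18 of signal transduction and 16 of the primary cilium, on which SMO signals, 0 were called in either direction, with medians of 0.10, 0.28 and -0.05. Sufu, the GLI-binding inhibitor, had a difference of -0.05 (adjusted p = 0.932, limma). Of 21 known target genes 2 were called lower and 0 higher, and 20 had a negative difference, against 59% of all genes, with a median of -0.30. The medians by day were -0.18, -0.16 and -0.55, and 10 of the 21 were lower on each day, against 21.4% of all genes. In 15 of the 21, the GFP- array of day 13 had the highest signal of its fraction. The 1 gene with a positive mean difference was Nkx2-1, the homeobox gene of the ventral telencephalon. Its difference of 0.78 did not pass the test (adjusted p = 0.112, limma). Nkx2-1 read 7.63, 5.96 and 7.62 in GFP+ and 6.50, 5.55 and 6.82 in GFP- cells, and so was lowest on day 12 in both, where Ptch1, Boc, Gli2 and Gli3 were highest. Olig2 and Foxa2, targets in ventral progenitors and in the floor plate, differed by -0.01 (adjusted p = 0.976, limma) and -0.22 (adjusted p = 0.614, limma). From day 11 to day 13 the difference was 0.22, 0.04 and -0.30 for Olig2 and 0.04, -0.13 and -0.57 for Foxa2. The negative means of both thus rest on day 13 in part or in whole.

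**Figure D4:**
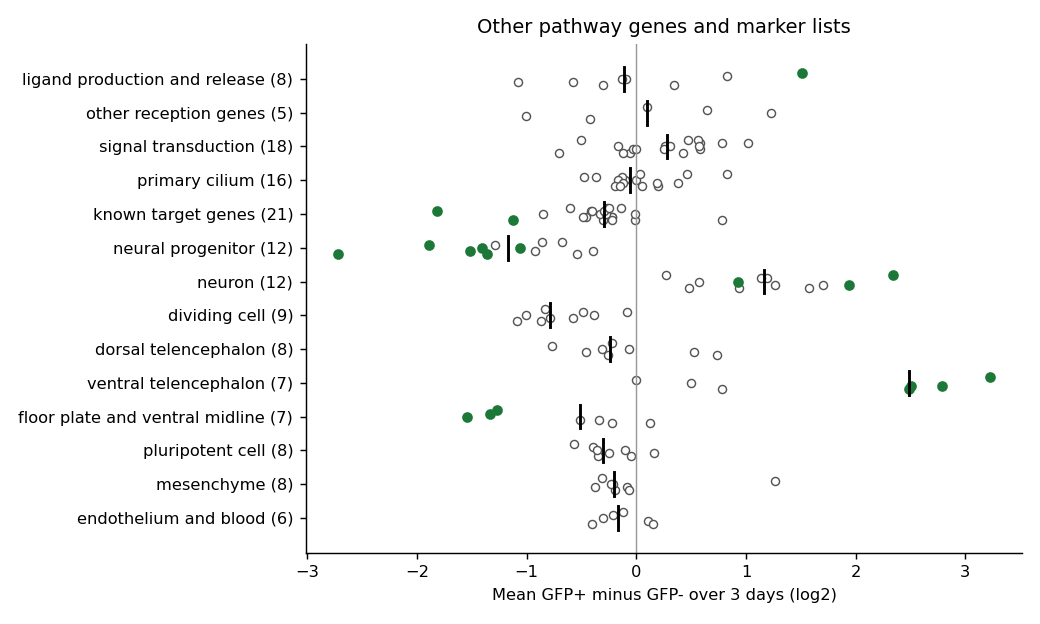
Mean difference of GFP+ minus GFP- (x axis, log2) of each gene in 5 lists of other Hedgehog pathway genes and 9 lists of cell type markers (y axis, number of measured genes in brackets). Filled points passed the test, open points did not, and bars are medians, which run from -1.17 for neural progenitor to 2.49 for ventral telencephalon markers.

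Some lists of cell type markers also differed between the fractions, in either direction, and their part in the results of the Hedgehog genes was not tested. Of 12 neural progenitor markers, 6 were called lower and 0 higher in GFP+ cells and all 12 had negative differences, with a median of -1.17. The 6 were Slc1a3, Notch1, Nes (-1.52), Hes5 (-1.41), Sox9 (-1.36) and Vim (-1.06). Of the 6 calls 3 held with the day left out of the model, those of Notch1, Nes and Hes5. Without day 13 no marker of any list passed. The summed signal of all 12 markers on a linear scale was 4716 to 9483 in GFP+ and 10870 to 14400 in GFP- cells. Such a sum weighs the brightest probe sets most, here those of Fabp7, which did not pass the test, and Vim. Of 12 neuron markers, 3 were called higher and 0 lower, with a median of 1.16 and summed signals of 9196 to 11430 against 2822 to 5877. The medians by day were 0.87, 0.85 and 1.79, and all 12 had their lowest GFP- signal on the day 13 array. The 3 called higher were Syt1 (2.34), Myt1l (1.94) and Map2 (0.92), of which Syt1 and Myt1l also passed with no block for the day. Of 9 markers of dividing cells, 0 passed the test and all 9 had negative differences, with a median of -0.78 and summed signals of 1068 to 1667 against 1889 to 3238. The fraction with the lower signals of Gli3, Boc, Gas1 and Ptch1 was thus also the one with lower progenitor and higher neuron signals.

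Markers of the floor plate and ventral midline, a source of Shh in the embryo, were measured for 7 genes, of which 3 were called lower and 0 higher. These were Ntn1 (-1.54), a guidance cue also made by progenitors, Spon1 (-1.33), a secreted matrix protein, and Sulf1 (-1.27), a heparan sulfate sulfatase. Ntn1 and Sulf1 passed also with the day left out of the model, and Spon1 did not. Without day 13 no gene of this or any other marker list passed. Foxa2, which defines the floor plate, did not pass, nor did Foxa1, Lmx1b and Ferd3l. The summed signal of the 7 genes was 411.3 to 561.6 in GFP+ and 776.1 to 1007 in GFP- cells. In GFP- cells the brightest of the 7, which weigh most in this sum, were Spon1 and Ntn1. On the GFP- array of day 13, where Shh read 7.56, 4 of these 7 markers had the highest signal of their fraction and 2 the lowest. That was not particular to this list. The same array gave the highest GFP- signal for 7 of 8 dorsal and 7 of 7 ventral telencephalon markers. It did so for 7 of 8 pluripotent cell, 6 of 8 mesenchyme and 3 of 6 endothelium and blood markers. For neural progenitor, neuron and dividing cell markers it was 2 of 12, 0 of 12 and 0 of 9. The samples are labelled as cortical progenitors, and of 8 dorsal telencephalon markers 0 passed the test, with summed signals of 389.4 to 621.3 in GFP+ and 464 to 681.3 in GFP- cells. Of 7 ventral telencephalon markers 4 were called higher, Dlx1, Dlx5, Lhx6 and Dlx2, of which Dlx1 alone also passed with no block for the day, with summed signals of 1266 to 3917 against 322.6 to 793.2. Of 8 pluripotent cell, 8 mesenchyme and 6 endothelium and blood markers 0 passed, with medians of -0.30, -0.21 and -0.17.

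The genes whose signals followed those of Gli3, Boc and Gas1 most closely over the 6 arrays were sought among the 9969 genes with a mean above the median. These correlations share the fractions and days and are given as a description over 6 arrays. For Gli3 they were Cercam (r = 0.995), Phldb2 (r = 0.995) and Iqgap2 (r = 0.993), with differences of -0.94, -0.64 and -2.14. For Boc they were Jag1, a Notch ligand (r = 0.9945), Mid1 (r = 0.994) and Ptch1 (r = 0.994), so that the receptor was among the 3 genes closest to this co-receptor. For Gas1 they were Aldh1l1, a folate enzyme of radial glia and astrocytes (r = 0.998), Spry1, an inhibitor of receptor tyrosine kinase signalling (r = 0.992), and Tysnd1 (r = 0.991). A correlation over 0.99 was reached by 3 genes for Gli3 and by 6 genes each for Boc and Gas1.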

How the data were processed

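The 6 arrays hold the RNA of both sorted fractions, 1 array per fraction, from day 11 to day 13. The deposited values are log2 signals of probe sets that the authors calculated with RMA16 in GeneSpring. Which arrays were normalized together, which annotation version was used and how probe sets were filtered is not given in the sources used here. Of 28853 probe sets, 21789 had 1 symbol, 1621 several and 5443 none, and 21698 were matched by Entrez ID to RefSeq (GRCm38.p6), which changed 0 symbols. Each of 19938 genes was represented by its single-symbol probe set with the highest mean, and dim probe sets were kept.

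The linear model used limma 3.58.1 (lmFit, eBayes) under R 4.3.3, with the fraction and the day each entered as a factor, 2 residual degrees of freedom and Benjamini-Hochberg adjustment over all genes at 0.05. A slope of the difference per day was fitted separately. The day in the labels pairs the fractions, and the correlation across genes between the deviations of the paired arrays from the mean of their fraction was 0.112 for day 11, 0.558 for day 12 and 0.368 for day 13. The scripts were tested on simulated data.

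The 10 genes, the lists, the tests and the motif were chosen with earlier results of these data known. Of the other pathway genes and markers, those past the test were named, up to 6 per list by size of difference, with Ihh, Dhh, Sufu, Nkx2-1, Olig2 and Foxa2 in any case, and Bcl11b as the check of the sort. For the 3 genes with the largest differences, the 3 most correlated genes were named. Of the listed genes, 10 had no single-symbol probe set and were not analysed here. The alternatives were the fit without day, also without the day 13 GFP- array, leaving out each day, centring of arrays on their median, a second quantile normalization, averaged probe sets per gene, filters on dim genes at the 20th percentile and the median, a trended and robust eBayes, and the methods' t-test with Benjamini-Hochberg adjustment. The methods give Student's t-test for data of the in vitro and in vivo experiments. They name no test for the arrays, so its use on them is a choice made here.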

Additional observations from a re-analysis of the deposited data

Results flagged for a closer look

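The difference of Shh, the ligand, turned its sign between days. On the log2 scale GFP+ minus GFP- came to 0.126 for day 11, -0.0232 for day 12 and -1.64 for day 13. The difference of Cdon, a co-receptor, also turned its sign, at -0.249 on day 11, 0.202 on day 12 and -0.578 on day 13. With 1 array per fraction and day the differences between single days were not tested, and the slope over the days did not pass the test for either gene. The values of -0.0232 and 0.126 for Shh lay within the spread of the 3 GFP+ arrays, whose SD was 0.13. The day 13 GFP- array, which stood apart from the other arrays, gave the highest signal of both genes, and its part in these values was not tested.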

How the results depend on the processing

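The number of the 10 genes called lower in GFP+ cells, 1 with the day as a block, depended on the settings. It was 2 with no replicate block, with or without the day 13 GFP- array, 0 to 5 with each day left out (0 without day 13), 0 after median centring, 3 after a further quantile normalization, 5 among genes above the 20th percentile, 6 among genes above the median, where 8 of the 10 were tested, 6 with a trended and robust eBayes and 0 with the methods' t-test, which had 5 lower at an unadjusted p under 0.05. In the same order of settings all genes called higher, 159, became 84 with no block, 202 when the day 13 GFP- array was left out as well, 0 to 930 with each day left out, 0 after centring, 52, 422, 787, 549 and 0. All genes called lower, 113, became 41 with no block, 114 when that array was left out as well, 0 to 229 with each day left out, 0 after centring, 99 after quantile normalization, 239 and 359 with the filters, 510 with eBayes and 0 with the methods' t-test. The genes of the 10 over 2-fold lower numbered 4 to 7 with each day left out, against 4. Those with every GFP+ array below every GFP- array numbered 6 to 9 with each day left out, 5 after centring and 8 after quantile normalization, against 6, and this was tried after seeing the data. No gene of the 10 was called higher, over 2-fold higher, or changed with day under any setting run for that count.

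Of 118 recomputed differences of the 10 genes 116 were negative. Shh turned to 0.063 when both the block and the day 13 GFP- array were left out, and ranged from -0.831 without day 11 to 0.051 without day 13. The difference of Gli3 stayed between -2.27 and -1.98 and passed in 9 of 12 alternatives, with adjusted p from 7.36e-07 to 0.269. It did not pass without day 13, after centring (-2.06) or with the methods' t-test (adjusted p = 0.269). Smo and Ptch1 each passed in 6 of 12, Gas1 and Boc in 5 of 12, Gli2 in 2 of 12 and Hhip in 2 of 11. Among the genes kept by the filter at the median, the median difference was 0.12, against -0.05 over all genes. The filters test fewer genes by construction, and the cause of the other shifts was not tested. With 6 arrays, 1 line and no measure of background, low signals such as those of Hhip and Cdon may understate differences.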
